A study of Mus musculus with 2 samples.

Results

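The homing receptors are 8 coding genes for receptors that guide blood cells through marrow, blood and tissue. They are Cxcr4, Cxcr2, Cxcr5, Ccr1, Ccr2, Ccr7, Ccr9 and S1pr1, out of 21900 coding genes of the mouse annotation. They were chosen by name, and the peaks set against them are those whose centre lies inside the gene or within 100 kb of an end, here called peaks in reach. There were 12 such peaks among the 3153 of the list. HLF (hepatic leukemia factor), a PAR bZIP transcription factor, was mapped with an anti-FLAG antibody in wild-type LSK cells, the marrow fraction without lineage markers and with Sca-1 and c-Kit. The retrovirus was pMX-3xFLAG-Hlf/Hlf-IRES-GFP in the FLAG-HLF arm (1 library) and pMX-GFP in the GFP-ctrl arm (1 library). In both arms 80000 cells were infected on retronectin and kept for 5 days in OP9 medium, with SCF at 50 ng/ml, IL-7 and Flt3L at 10 ng/ml each, and IL-3 at 5 ng/ml. The HLF protein therefore came from a virus, in cultured cells. Only the FLAG-HLF peak list was analysed, so the arms were not compared.

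Chemokine receptors are G protein-coupled receptors that steer cells along gradients of small secreted proteins, the chemokines. CXCR4 and its ligand CXCL12 keep stem and progenitor cells in the marrow, while S1PR1 reads sphingosine-1-phosphate and draws cells out into blood and lymph. CXCR2, CCR1 and CCR2 serve neutrophils and monocytes, and CXCR5, CCR7 and CCR9 direct lymphocytes and their progenitors to follicles, lymph nodes, thymus and gut.

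The list holds 1 position per peak, each 400 bases wide, with no height, read count or significance, and depth is unknown. With 1 library there is no spread between replicates, so the counts and distances below are descriptions without a test. The marker genes of the LSK gate could not be checked, since the list gives no level of any gene. Expression and open chromatin of these cells were not measured in the list, and their part in where peaks lie was not tested.

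FLAG-HLF peaks lay within 100 kb of most homing receptor genes. A peak was in reach of 7 of the 8 receptors (87.5%), while 36.3% of all coding genes had one. Among coding genes up to 20 kb long, the size class of all 8 receptors, the share was 33.1%. None of the 8 held a peak centre within its bounds, against 6.82% of all coding genes and 2.14% of those up to 20 kb long, so that 0 of 8 is what the background share gives. There were 6 receptors with 2 peaks in reach (75.0%), Ccr1 with 1 and Ccr9 with 0, while 12.4% of all coding genes had 2 or more. The 8 genes were taken up with earlier results of this list known, so these shares do not show that receptors as a class attract peaks. The rest of the chemokine receptor family, given further on, had a lower share.

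**Figure D1:**
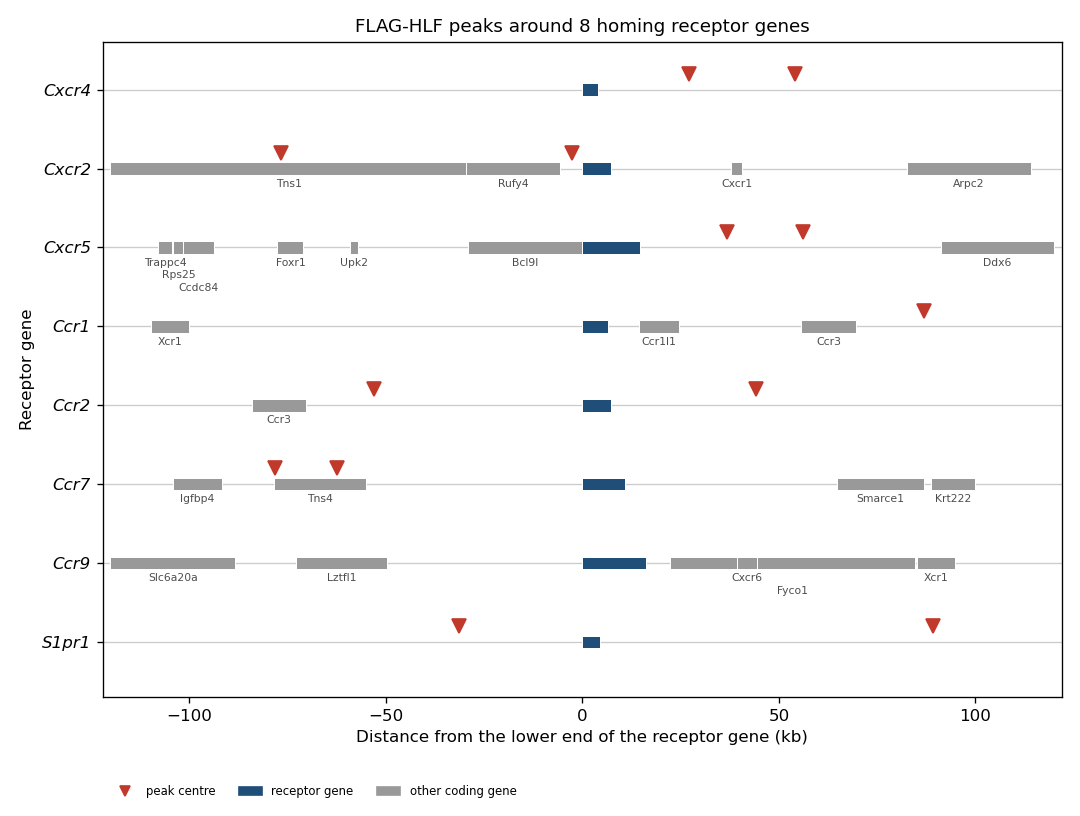
Peaks around the 8 receptor genes. Each row is a receptor gene (dark bar) with distance from its lower end in kb on the horizontal axis. Red triangles are peak centres and grey bars are other coding genes. Coding genes at the far left edge of a row, and 1 further coding gene, are not drawn. No triangle lies over a receptor gene, the one nearest to a receptor is 2.68 kb from Cxcr2, and the row of Ccr9 has none.

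The receptors differed in how near the peaks came. The distances of the 13 pairs of receptor and peak ran from 2.68 to 84.5 kb, with a median of 50.1 kb. Of these pairs, 1 was within 5 kb, 5 lay at 20 to 50 kb and 7 beyond 50 kb. Within 20 kb, 1 of the 8 receptors had a peak (12.5%), near the 15.0% of all coding genes and 10.8% of those up to 20 kb long. Within 5 kb the same 12.5% stood against 9.42% and 4.97%. The closest peak of each receptor stood at a median of 34.0 kb (quartiles 22.8 and 66.9 kb), against 186 kb over all coding genes (quartiles 53.1 and 598 kb) and 209 kb over coding genes up to 20 kb long. In order of distance, the receptors ran Cxcr2, Cxcr5, Cxcr4, S1pr1, Ccr2, Ccr7, Ccr1 and Ccr9. Cxcr5 and Cxcr4, at 22.2 and 23.0 kb, were nearly level, and with no replicate the order of close neighbours cannot be checked.

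**Figure D2:**
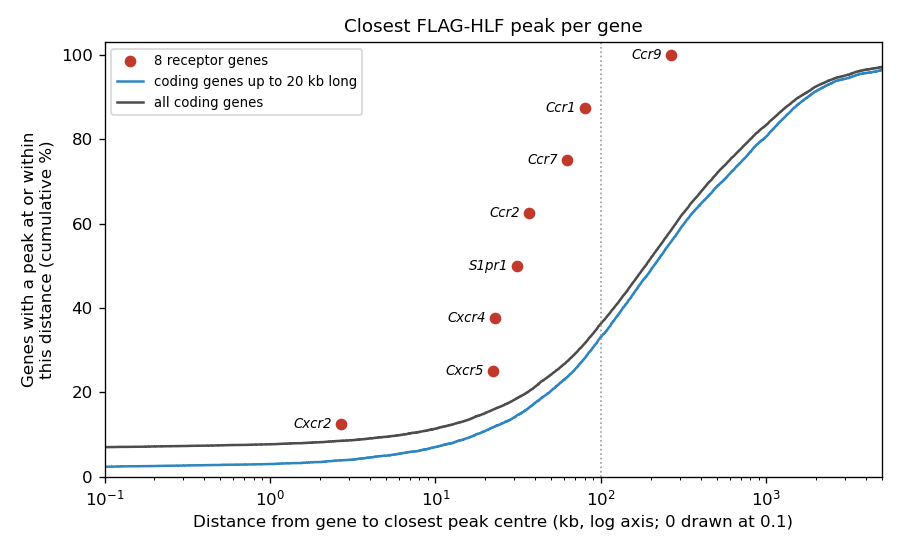
Distance from a gene to its closest peak centre (kb, log axis) against the cumulative share of genes (%). Red points are the 8 receptor genes, the lines are coding genes up to 20 kb long and all coding genes, and the dotted line marks 100 kb. The receptors other than Ccr9 stand to the left of the dotted line, from Cxcr2 at 2.68 kb to Ccr1 at 80.2 kb.

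Cxcr2, the receptor that brings neutrophils to CXCL1, CXCL2 and related chemokines, had the closest peak of the 8. It lies on the plus strand of chromosome 1 (74153994 to 74161246, mm10). The peak (chromosome 1, 74151111 to 74151510) was centred 2.68 kb upstream of the transcription start, in the gap between Cxcr2 and the neighbouring gene Rufy4, whose end was 3.08 kb away on the other side. Of coding genes up to 20 kb long, 3.85% had a peak as close or closer. A second peak (chromosome 1, 74077266 to 74077665), 76.5 kb upstream, lay inside Tns1, which encodes the adhesion protein tensin 1, and was nearer to Rufy4 and Tns1 than to Cxcr2. Cxcr1, the related neutrophil receptor next to Cxcr2, was 40.5 kb from the nearer of these peaks.

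Cxcr4, whose protein retains stem cells in marrow by binding CXCL12, had 2 peaks, both upstream. The gene is on the minus strand of chromosome 1 (128588199 to 128592299). The nearer peak (chromosome 1, 128615132 to 128615531) stood 23.0 kb from the transcription start and the farther (chromosome 1, 128642213 to 128642612) 50.1 kb, with 27.1 kb between them. No other coding gene lies within 100 kb of Cxcr4, and Cxcr4 was the only coding gene in reach of either peak. The nearest coding gene other than Cxcr4 was Dars, which encodes an aspartyl-tRNA synthetase. Neither peak lay in an annotated noncoding gene, and the nearest of these, the lncRNA gene Gm41950, was 65.9 kb from the nearer peak. Of coding genes up to 20 kb long, 11.9% had a peak as close as that of Cxcr4 or closer.

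Promoter sequences from RefSeq (GRCm38.p6) were matched for 5 of the 8 receptors, Cxcr4, Cxcr2, Ccr1, Ccr2 and Ccr9, and no peak overlapped any of the 5. The 250 bases before the start of Cxcr2 (chr1:74153744-74153993, plus strand) and of Cxcr4 (chr1:128592300-128592549, minus strand) are shown 5′ to 3′. These starts had peaks upstream of them and none on them. Ccr1 and Ccr2, not shown, also had a peak upstream of the start and none on it. Capitals mark bases under a FLAG-HLF peak, here and in the chemokine promoters further on, so Cxcr2 and Cxcr4 are in lower case throughout.
Cxcr2: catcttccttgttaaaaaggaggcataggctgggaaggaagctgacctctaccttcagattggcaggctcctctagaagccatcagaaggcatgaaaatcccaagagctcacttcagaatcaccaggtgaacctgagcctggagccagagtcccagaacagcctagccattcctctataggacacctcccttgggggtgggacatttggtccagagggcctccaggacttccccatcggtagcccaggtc
Cxcr4: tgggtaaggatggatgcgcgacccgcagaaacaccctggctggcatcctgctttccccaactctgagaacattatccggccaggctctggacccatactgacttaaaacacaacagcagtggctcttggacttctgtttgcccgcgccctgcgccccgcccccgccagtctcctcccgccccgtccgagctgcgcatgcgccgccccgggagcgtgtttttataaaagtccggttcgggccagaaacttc

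The promoter windows, 250 bases before to 50 after the start, were searched on both strands for 8-base words of the bZIP family. The letters were TTACGTAA, the palindrome bound by PAR bZIP factors, TTACATAA and TTACGCAA, each 1 base away from it, and TTGCGCAA, the palindrome bound by C/EBP factors. None of the 5 receptor windows held any of the 4, nor a word within 1 mismatch of TTACGTAA. Such a word within 1 mismatch stood in 18.1% of the 227 windows that overlapped a peak anywhere in the genome and in 3.90% of all 32851 windows. The word TTACGCAA stood in 4.85% of the windows with a peak and in 0.167% of all, TTACATAA in 6.17% and 0.938%, and TTGCGCAA in 2.64% and 0.183%. The exact TTACGTAA was rare, in 1 window with a peak (0.441%) and in 0.119% of all. Words within 1 mismatch include TTACATAA and TTACGCAA, so these shares overlap. The sequences of the peaks near the receptors were not used here, and nothing follows from the windows about the letters under those peaks.

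Cxcr5, the receptor that leads B cells and follicular helper T cells into B cell follicles, had 2 peaks on 1 side. The gene spans 44511787 to 44526444 of chromosome 9, and its strand was not in the promoter table. The peaks (44548478 to 44548877, and 44567685 to 44568084) stood 22.2 and 41.4 kb above its upper end. They were 19.2 kb apart, in the stretch between Cxcr5 and Ddx6, a gene for an RNA helicase. The nearer peak had Cxcr5 as its nearest coding gene, while the farther was 35.1 kb from Ddx6 and so closer to that gene. The lncRNA gene LOC108167647 lay 4.00 kb from the nearer peak and 5.96 kb from the farther. Bcl9l, which overlaps the lower end of Cxcr5 and encodes a cofactor of beta-catenin, was 36.8 kb from the nearer peak.

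Ccr1, Ccr2 and Ccr9 belong to 1 receptor cluster on chromosome 9, in which 2 peaks were each in reach of several genes. Ccr2, the receptor for CCL2 that brings monocytes out of marrow, spans 124101918 to 124109140 on the plus strand. It had 1 peak 36.8 kb downstream (124145773 to 124146172) and 1 peak 53.0 kb upstream (124048722 to 124049121), 97.1 kb apart. The upstream peak was also the single peak of Ccr1, a receptor for CCL3 and CCL5 on monocytes and neutrophils (123962126 to 123968692, minus strand), at 80.2 kb upstream. Ccr3, the eotaxin receptor, was nearer to this shared peak than either, at 17.2 kb. A single peak in this cluster thus counts for several receptors, and the counts for Ccr1 and Ccr2 are not independent.

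Ccr9, the receptor for CCL25 that leads cells to thymus and gut, had no peak in reach. The gene spans 123767211 to 123783457 on the plus strand of chromosome 9, and its closest peak was the one shared by Ccr1 and Ccr2, 265 kb away. Of coding genes up to 20 kb long, 55.7% had a peak as close or closer. Its neighbours Cxcr6 and Xcr1, receptors of T and natural killer cells and of dendritic cells, also had none in reach, with closest peaks at 237 and 187 kb. The peaks of the cluster thus lay at its Ccr3 and Ccr2 end.

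Ccr7, the receptor that takes T cells and dendritic cells to lymph nodes, had 2 peaks in reach that lay inside another gene. Ccr7 spans 99144199 to 99155077 of chromosome 11, and its strand was not in the promoter table. The peaks (99081554 to 99081953, and 99065909 to 99066308) stood 62.4 and 78.1 kb below its lower end and 15.6 kb apart. Both had their centre in Tns4, which encodes tensin 4, at 7.55 and 0.43 kb from an end of that gene. By distance, Ccr7 was in place 4 among the coding genes around each peak, behind Tns4, Igfbp4 and Top2a.

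S1pr1, the receptor that opposes retention and lets lymphocytes leave for blood, resembled Cxcr4 in standing alone. It spans 115710433 to 115715055 of chromosome 3, and no other coding gene lies within 100 kb of it. A peak on each side had S1pr1 as its nearest coding gene, 31.3 kb below the lower end (115678982 to 115679381) and 84.5 kb above the upper end (115799327 to 115799726). The first had no other coding gene in reach. The second also had Dph5, a gene for diphthamide synthesis, in reach at 88.6 kb. The strand of S1pr1 was not in the promoter table, so upstream and downstream were not told apart.

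When a peak counted only for the coding gene whose end was nearest, 4 receptors kept a peak. They were Cxcr4 and S1pr1 with 2 each and Cxcr2 and Cxcr5 with 1 each, and 10.8% of all coding genes were nearest to a peak by this rule. Ccr1, Ccr2 and Ccr7 had peaks in reach that were each nearer to another coding gene. Of the 12 peaks, 3 lay inside another coding gene, 1 in Tns1 and 2 in Tns4, and none lay in an annotated noncoding gene. For the receptors with a known strand, 6 of 7 pairs were upstream and 1, at Ccr2, was downstream. The peak shared by Ccr1 and Ccr2 was upstream of both and counts for each. The upstream share over all coding genes was not computed, so these pairs do not show a lean particular to the receptors. The other 6 pairs had no strand.

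**Figure D3:**
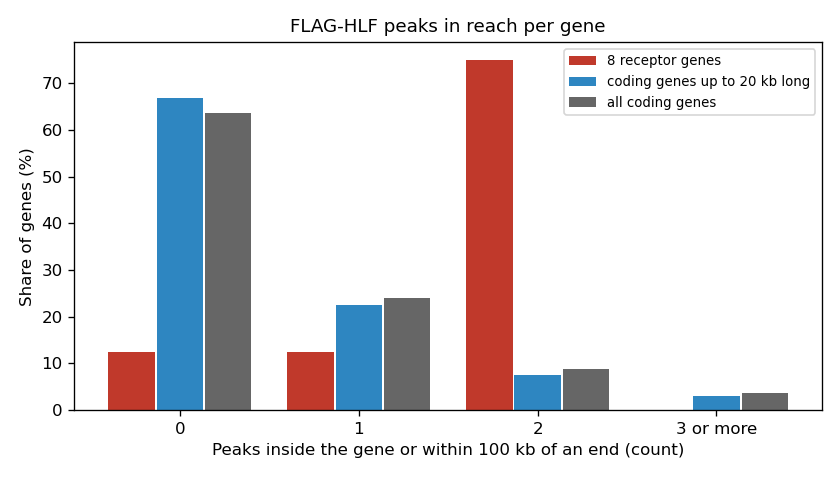
Share of genes (%) by number of peaks inside the gene or within 100 kb of an end. Bars are the 8 receptor genes, coding genes up to 20 kb long and all coding genes. Of the receptors 75.0% had 2 peaks, against 7.55% of the short genes and 8.69% of all, and no receptor had 3 or more.

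Peaks were in reach of some of the other chemokine receptors. Of 17 further receptors, 8 had a peak in reach (47.1%) and 2 were nearest to a peak, among them Ccr3. Over all coding genes these shares were 36.3% and 10.8%, and 2 of 17 is close to the latter. Closest peaks stood 17.1 kb from Ccrl2, 17.2 kb from Ccr3, 35.4 kb from Cxcr3, 40.5 kb from Cxcr1, 62.2 kb from Ccr1l1, 63.5 kb from Ccr10 and 73.4 kb from Ccr4. The peak of Ccr3 and Ccr1l1 was the one shared by Ccr1 and Ccr2, and that of Cxcr1 was the nearer peak of Cxcr2. The share of these further receptors is thus not independent of that of the members. With the 7 chemokine receptors among the members, the family of 24 had 14 genes with a peak (58.3%), and 17 peaks made up these 14. Ackr3, the scavenger receptor that removes CXCL12, had its closest peak 826 kb away.

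The chemokines that these receptors bind showed peaks for some receptors and not for others. Of 33 chemokine genes, 19 had a peak in reach (57.6%), but the genes lie in clusters and shared 14 peaks. By nearest gene end, 5 of the 33 chemokine genes were nearest to a peak. Over all coding genes, 36.3% had a peak in reach and 10.8% were nearest to one. Cxcl12, the ligand of CXCR4, and Cxcl13, the ligand of CXCR5, had none, with the closest at 700 and 3306 kb. Ccl2, Ccl7 and Ccl12, ligands of CCR2, had none in reach, with the closest at 334, 324 and 268 kb. Ccl19, a ligand of CCR7, had none in reach either, with the closest at 189 kb. Ccl25, the ligand of CCR9, did have 1 in reach, 86.4 kb upstream. Of the CXCR2 ligands, Cxcl2 had a peak 3.26 kb downstream, and the same peak was 16.1 kb from Cxcl1. Ccl17, a ligand of CCR4, held 1 peak, and Cxcl10, a ligand of CXCR3, had 2 upstream at 9.37 and 19.7 kb.

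Peaks lay on the starts of Ccl3 and Ccl9. Ccl3, a ligand of CCR1, had a peak centred 0.108 kb upstream of its start (chromosome 11, 83649287 to 83649686), and this peak was also inside the bounds of Ccl4, a related chemokine gene. Ccl9, a mouse ligand of CCR1, had a peak centred 0.046 kb inside its start (83578391 to 83578790) and another 0.665 kb upstream of the gene (83579102 to 83579501). Ccl5, another ligand of CCR1, was 20.1 kb from its closest peak, and Ccl6, a neighbour of Ccl9, was 8.59 kb from the upstream peak of Ccl9. Among the list genes that have an entry in the RefSeq promoter table, Ccl3 and Ccl9 were the 2 whose window overlapped a peak. List genes without an entry, among them Itgal, Itgb2, Pecam1, Itga6 and Arrb1, could not be examined in this way. Their 250 bases before the start (chr11:83649379-83649628 and chr11:83578637-83578886, both minus strand) are shown for comparison with Cxcr2 and Cxcr4, again with bases under a peak in capitals.
Ccl3: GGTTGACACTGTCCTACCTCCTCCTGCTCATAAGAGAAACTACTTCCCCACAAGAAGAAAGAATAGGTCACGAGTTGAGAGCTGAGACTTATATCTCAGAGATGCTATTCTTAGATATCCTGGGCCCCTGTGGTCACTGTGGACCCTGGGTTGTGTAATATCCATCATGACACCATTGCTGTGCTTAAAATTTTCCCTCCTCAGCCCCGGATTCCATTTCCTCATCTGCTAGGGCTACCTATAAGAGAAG
Ccl9: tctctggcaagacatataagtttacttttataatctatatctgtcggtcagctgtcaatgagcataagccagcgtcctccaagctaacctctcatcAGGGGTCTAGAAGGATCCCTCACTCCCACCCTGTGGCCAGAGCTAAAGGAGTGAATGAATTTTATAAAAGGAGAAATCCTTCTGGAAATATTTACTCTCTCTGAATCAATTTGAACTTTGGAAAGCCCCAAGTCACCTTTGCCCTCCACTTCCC
All 250 of these bases in Ccl3 and 154 of them in Ccl9 lay under a peak, while 0 did in Cxcr2 and Cxcr4. Neither window held any of the 4 words, nor one within 1 mismatch of TTACGTAA.

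Genes of the sphingosine-1-phosphate pathway, which S1pr1 serves, had a peak in reach at 7 of 13 (53.8%), against 36.3% of all coding genes. Sgpl1, the lyase that breaks the lipid down, held 1 peak inside. S1pr3, another receptor of the lipid, had 1 peak 5.33 kb upstream. Cd69, whose protein pulls S1PR1 from the cell surface, had 6 peaks in reach, from 33.3 to 95.5 kb, and was the nearest gene to 2 of them. Klf2, a transcription factor known to activate S1pr1, had 2 upstream at 37.3 and 45.1 kb. Spns2, the lipid's exporter, had 2 at 50.8 and 60.5 kb, Sphk2, a kinase that makes it, 2 at 82.6 and 85.8 kb, and S1pr4 1 at 83.7 kb. S1pr2 and S1pr5 had none in reach.

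Peaks inside genes did occur among the genes that act below the receptors and among adhesion genes. These genes are longer, with medians of 31.8 and 39 kb, against 7.24 kb for the 8 receptors. Over all coding genes, 36.3% had a peak in reach and 6.82% held one. No share was computed for genes of like length, so the part of length in the counts below was not tested. Of 37 genes of chemokine receptor signalling, 23 had a peak in reach (62.2%) and 12 held one. They included Gnai3 and Gnaq, which encode G protein alpha subunits, and Grk5 and Arrb1, which end receptor signalling. Dock2, Dock8 and Elmo1, which take part in activating small GTPases in migration, and Rhoh were also among them. By nearest gene end, Dock8 and Elmo1 kept no peak. Gnai2, another alpha subunit gene of leukocyte chemokine signalling, had its closest peak 350.0 kb away. Of 19 homing adhesion genes, 11 had a peak in reach (57.9%) and 7 held one. Itgb2 and Pecam1 each held 2, and Itga4, Itga6, Itgal, Itgb7 and Cd47 each held 1. Itga4 encodes a chain of VLA-4, the integrin that binds VCAM-1 in marrow. Vcam1, the gene for VCAM-1 itself, had a peak 32.7 kb outside its bounds.

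**Figure D4:**
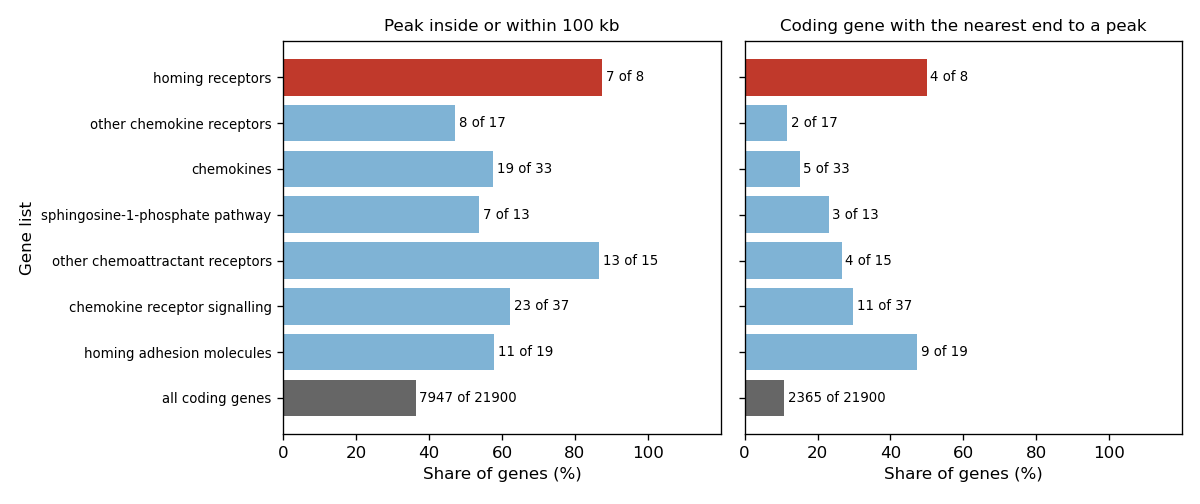
Share of genes (%) with a FLAG-HLF peak inside or within 100 kb (left) and share that are the coding gene with the nearest end to a peak (right), for the homing receptors, the other lists and all coding genes. The homing receptors reached 87.5% and 4 of 8, against 36.3% and 10.8% of all coding genes.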

How the data were processed

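The authors deposited 1 list of peak positions, from anti-FLAG ChIP-seq of the FLAG-HLF library. Per the submitters' processing notes, the build was mm10 (GRCm38) and the tools were MACS2, Bowtie2 and bedtools. Their roles and versions, the peak threshold and the background were not given in the sources used here. Chromatin was crosslinked with 1% formaldehyde and sheared in 4 sonication cycles, per the labels' protocols. The deposited values are start and end positions in bases, with no score. A peak centre is start + 200. Genes came from RefSeq GRCm38.p6 (49997 genes, 21900 coding), which matched 142 of 143 list genes; Cxcl11 is annotated as a pseudogene. Strand and transcription starts came from the RefSeq promoter table. Results of 2 list genes are counted in their lists and not reported here by name. A peak inside the bounds of several genes counted for each. Distances were tested on simulated data with planted peaks. Members, lists and comparisons were chosen with earlier results of these data known. The naming rule took all members, their peaks' neighbours and up to 8 genes per list in order of distance; Cxcl12, Cxcl13, the ligands of CCR2, CCR7 and CCR9, Ccl5, Ackr3, Cxcr6, Xcr1, S1pr2, S1pr5, Vcam1, Ptgdr2, Cysltr1 and Gnai2 were named outside it, for their role and after their values were seen. Python 3.11.15, numpy 2.4.6, pandas 2.3.3 and matplotlib 3.10.9 were used.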

Additional observations from a re-analysis of the deposited data

How the results depend on the processing

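Of 65 alternative values for 10 results, 33 stayed within 1.5 times the value reported and 32 did not. The alternatives changed the distance limit, the part of the peak used, the gene a peak is given to and the lines of the list, and every result is a count without a test. With a limit of 50 kb, 5 receptors had a peak in reach, against 24.2% of all coding genes. With that limit the peaks at the receptors numbered 6, and the genes with a peak were 5 for the other chemokine receptors, 12 for chemokines and 4 for the sphingosine-1-phosphate pathway. With a limit of 200 kb, 7 receptors had a peak, against 51.7% of all coding genes. With each peak given only to the nearest gene end, 4 receptors and 6 peaks remained, with 2 other chemokine receptors, 5 chemokines, 3 sphingosine-1-phosphate genes, 4 other chemoattractant receptors, 11 signalling genes and 2365 coding genes in all. With a containing gene taken first, the receptors were again 4 with 6 peaks, with 2 other chemokine receptors, 4 chemokines, 3 sphingosine-1-phosphate genes, 3 other chemoattractant receptors, 13 signalling genes and 2439 coding genes (11.1%). Both rules give a peak to fewer genes by construction. In the first 1576 lines, 5 receptors had a peak (5 peaks), against 4826 coding genes (22.0%). Those lines gave 2 other chemokine receptors, 7 other chemoattractant receptors, 15 signalling genes and 7 adhesion genes. In the last 1577 lines, 7 receptors had a peak (7 peaks), against 4736 coding genes (21.6%). Those lines gave 10 chemokines, 8 other chemoattractant receptors and 6 adhesion genes. Both parts of the list hold fewer peaks by construction. Of coding genes up to 20 kb long, 3928 had a peak. Allowing 1 mismatch to TTACGTAA left the receptor promoters with a match at 0. No paired analysis was possible because only 1 library was analysed. A stricter peak threshold could not be tried, since the list has no score, and the unknown depth sets no limit for receptors without a peak.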

Other observations

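Receptors for other chemoattractants had at least 1 peak in reach about as widely as the homing receptors, but fewer had 2 or more. Of 15 such genes, 13 had a FLAG-HLF peak in reach (86.7%), against 36.3% of all coding genes. The closest peaks of the 15 stood at a median of 21.5 kb. Among the 15, 2 had 2 or more peaks in reach, against 6 of the 8 homing receptors. Over all coding genes the share with 2 or more was 12.4%, and 2 of 15 is close to it. Cnr2, the cannabinoid receptor of B cells and macrophages, held a peak. C5ar1, the receptor for complement C5a, had 1 peak 2.47 kb downstream. Fpr2 and Fpr1, receptors for formyl peptides, shared 1 peak, at 7.02 and 17.03 kb. Gpr183, the oxysterol receptor that positions B cells, had 1 peak on each side, at 17.6 and 20.5 kb. Ltb4r1, the leukotriene B4 receptor, had 2 at 13.003 and 41.5 kb, P2ry14 had 1 at 15.03 kb and F2r, a thrombin receptor, 1 at 21.5 kb. By nearest gene end 4 of the 15 kept a peak, against 10.8% of all coding genes. Ptgdr2 and Cysltr1 had none in reach, with the closest at 123 and 437 kb. The list was drawn up with earlier results of these data known, and the share was not tested.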
